A study of Mus musculus with 2 samples.

Results

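Lats2, Cdkn1a, Rbl2, Rhoc, Tgfbr2, Casp2, Ei24 and Mbd2 are mouse genes whose mRNAs have been reported as targets of the microRNAs (miRNAs) of the miR-290 and miR-302 families. These 8 genes were taken by name, and not by a rule on their measured values, from the 43629 genes listed in the count data. Earlier results of these data were known when they were chosen. Each of the 8 was listed in both libraries. The study made Dicer_KO mouse embryonic stem cells (mESCs) by cutting the Dicer1 gene with pairs of CRISPR/Cas9 guides, and sequenced their polyadenylated RNA in duplicate. Dicer is the enzyme that cuts miRNA hairpins into mature miRNAs. The cells were derived from E14TG2a, an established mESC line, and were grown in medium with serum and leukaemia inhibitory factor. Both libraries had the genotype Dicer knockout and the 129/Ola background. Replicate 1 was harvested at passage 7 and replicate 2 at passage 4. The lines of the study were clones grown from sorted single cells, and the labels do not say which deletion each library carries. Passage, clone and library therefore cannot be told apart here, and no difference between the libraries could be tested. WT mESCs were not analysed here, so none of the values below says whether a gene rose or fell when Dicer was lost.

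A miRNA guides a silencing complex to mRNAs, mostly through pairing of its bases 2 to 8, the seed, with a site in the 3′ untranslated region (3′UTR). Bound mRNAs are translated less and are degraded faster. The miR-290 cluster is the main source of miRNAs in mESCs, and the miR-302 cluster carries a closely related seed. In mESCs these miRNAs are known for promoting passage through the G1/S transition of the cell cycle, and Cdkn1a, Rbl2 and Lats2 are the targets usually named for that role.

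The mature sequences are shown because the seed is what links the genes. They are given 5′ to 3′ from RefSeq (GRCm38.p6), with bases 2 to 8 in capitals. Mature miRNAs were searched for miR-290 to miR-295 and for miR-302a to miR-302d, and not for miR-367. Of the 11 mature miRNAs of the 3′ arm that were found, 5 carried the seed AAGUGCU, from miR-291a, miR-294, miR-295, miR-302b and miR-302d. The 11 include miR-290b-3p and miR-292b-3p, which lie on the strand opposite to the rest of the miR-290 cluster.
miR-291a-3p: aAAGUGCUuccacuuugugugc
miR-294-3p: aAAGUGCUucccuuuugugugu
miR-295-3p: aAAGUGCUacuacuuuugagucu
miR-302b-3p: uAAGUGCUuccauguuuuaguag
miR-302d-3p: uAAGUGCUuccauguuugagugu
The first 6 seed bases, AAGUGC, were shared by 7 of the 11, since miR-290a-3p and miR-291b-3p differed from these only in the last base of the seed. In miR-302c-3p the same letters began at base 1 of the miRNA, so its seed was shifted by 1 base.
miR-290a-3p: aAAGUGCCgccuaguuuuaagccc
miR-291b-3p: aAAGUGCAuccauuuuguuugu
miR-302c-3p: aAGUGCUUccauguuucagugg
miR-302a-3p and miR-292a-3p have no entry. The northern blot probe that the study used for miR-295 paired with 23 of the 23 bases of miR-295-3p, and its capitals mark the stretch opposite the seed.
miR-295 probe: agactcaaaagtagtAGCACTTt

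The seed AAGUGCU pairs with the mRNA letters AGCACTT. A site was counted as an 8mer (AGCACTTA), a 7mer-m8 (AGCACTT with no A after it) or a 7mer-A1 (GCACTTA with no A before it), on the sense strand only, and each site was counted once under its longest form. In the longest coding transcript of each gene in GENCODE M21 (GRCm38), all 8 genes held at least 1 such site in the 3′UTR. The same held for 16.0% of the 20675 genes searched. An 8mer was present in 5 of the 8 genes (Lats2, Cdkn1a, Rbl2, Tgfbr2 and Mbd2), against 2.68% of all genes. These shares describe how the genes are known rather than a new property, because target lists are partly drawn up from seed matches. The 8 genes held 14 sites in 14318 bases, or 0.978 sites per kilobase, against 0.153 sites per kilobase over all 3′UTRs. Their 3′UTRs were also longer, with a median of 1366 bases against 797. Among 3′UTRs within 20% of its own length, a site was found in 5.66% for Rhoc, the lowest share, and in 61.8% for Tgfbr2, the highest.

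**Figure D1:**
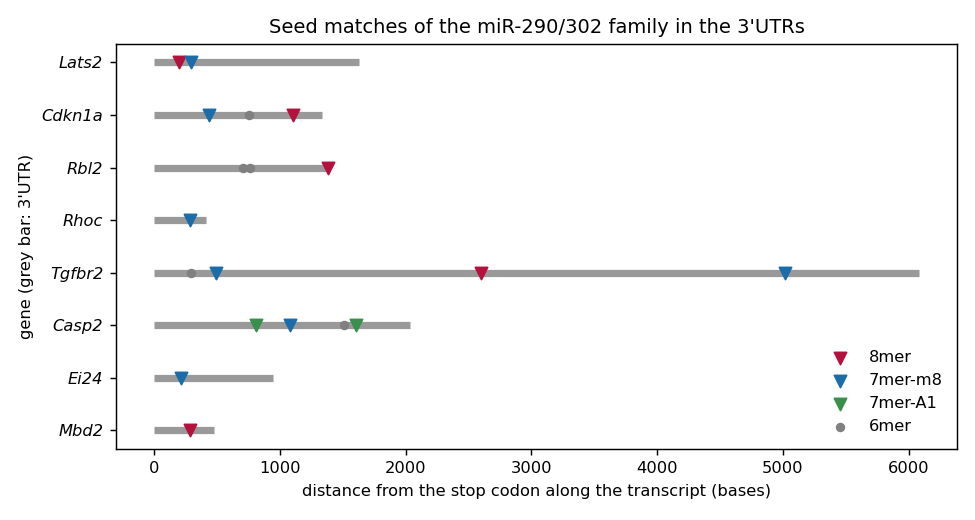
Map of the annotated 3′UTR of each of the 8 target genes, drawn to scale in bases from the stop codon, with each seed match marked by its form and 6-letter matches (GCACTT alone) as grey dots. The 3′UTR of Tgfbr2 is 6085 bases long and that of Rhoc 416 bases, and each of the 8 holds between 1 and 3 matches of 7 or 8 letters.

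The windows around the sites are shown so that the matches can be read against the miRNAs above. Each is 29 bases of the mRNA strand, with the letters of the match in capitals, and all lie in the last exon of the transcript used. The position of a site is given as the number of 3′UTR bases before its letters GCACTT. Lats2, a kinase of the Hippo pathway, held an 8mer after 195 bases of its 3′UTR (chr14:57691086-57691114, minus strand) and a 7mer-m8 after 294 bases (chr14:57690987-57691015), both in exon 8 of 8.
Lats2 8mer: aaattagtacagtatggaaagAGCACTTA
Lats2 7mer-m8: tccatgtgtgttgtatctgatAGCACTTg
Cdkn1a encodes p21, an inhibitor of cyclin-dependent kinases. Its sites lay after 435 bases (chr17:29099807-29099835, plus strand) and after 1107 bases (chr17:29100479-29100507), in exon 3 of 3.
Cdkn1a 7mer-m8: gggtgatcctcagacctgaatAGCACTTt
Cdkn1a 8mer: gttgaataccgtgggtgtcaaAGCACTTA
Rbl2 encodes p130, a relative of the retinoblastoma protein that represses cell cycle genes. Its single site lay after 1384 of the 1398 bases of the 3′UTR (chr8:91123809-91123837, plus strand, exon 22 of 22). The letters before it, aataaA, overlap the match by 1 base and spell AATAAA, the polyadenylation signal, which was present in the last 40 bases of 58.3% of all 3′UTRs and of 5 of the 8 genes.
Rbl2 8mer: aatatgtgtatttttcaataaAGCACTTA

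Rhoc, a small GTPase that acts on the actin cytoskeleton, held a single 7mer-m8 after 288 bases (chr3:104794310-104794338, plus strand, exon 5 of 5).
Rhoc 7mer-m8: gccttccccatattacacaccAGCACTTt
Tgfbr2, the type II receptor for TGF-β, held 3 sites, after 491 bases (chr9:116089880-116089908, minus strand), after 2600 bases (chr9:116087771-116087799) and after 5016 bases (chr9:116085355-116085383), in exon 8 of 8. A shorter annotated 3′UTR of Tgfbr2, of 1449 bases, holds the first of these and not the other two.
Tgfbr2 7mer-m8, nearest the stop codon: gaagggactcgggatagcgttAGCACTTg
Tgfbr2 8mer: tctttttatatcaaaacctaaAGCACTTA
Tgfbr2 7mer-m8, farthest from the stop codon: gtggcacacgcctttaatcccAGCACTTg
The last of these windows was found whole in the 3′UTRs of 7 other genes, and the 15 bases before its final base in those of 171. None of the other windows occurred whole elsewhere, and of the 15 bases before their final base those of Ei24 occurred in 1 other gene.
Casp2, an initiator caspase, held 3 sites and no 8mer, after 810 bases (chr6:42281266-42281294, plus strand), after 1081 bases (chr6:42281537-42281565) and after 1602 bases (chr6:42282058-42282086), in exon 11 of 11.
Casp2 7mer-A1, nearest the stop codon: ttccttactgtggcttctgcatGCACTTA
Casp2 7mer-m8: ccatatgtgatataacctagaAGCACTTg
Casp2 7mer-A1, farthest from the stop codon: acttactgatatccagtaactgGCACTTA
Ei24, a p53-induced gene that encodes a membrane protein of the endoplasmic reticulum, held a single 7mer-m8 after 212 bases (chr9:36779888-36779916, minus strand, exon 11 of 11).
Ei24 7mer-m8: gagttttccagctgtttttttAGCACTTg

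The libraries held 41710122 and 41566184 counts on genes. The 8 genes together took 39603 and 34483 of these, or 0.0949% and 0.0830%. Dicer1 had 1343 counts in replicate 1 and 1510 in replicate 2, or 32.2 CPM (counts in every 1000000 counts on genes, 95% Wilson interval 30.5 to 34.0) and 36.3 CPM (34.5 to 38.2). The paper reports from its RNA sequencing that Dicer mRNA was lost in both mutant lines. It also reports the deletions by PCR and the absence of DICER protein by immunoblot. A sum over the whole gene includes exons outside a deletion, so these counts do not check the deletion itself. WT values were not used here, so the counts do not show whether the mRNA fell. All 10 mESC markers examined, among them Pou5f1, Nanog and Sox2, had a mean of at least 10 counts, and together they reached 10293 and 6869 CPM. Dppa5a, at 4792 and 2041 CPM, was the one past 2-fold, and the median log2 ratio of the list was 0.12. Of 7 fibroblast markers, 2 had that mean, with a summed level of 20.4 and 15.9 CPM carried mostly by Thy1, and Postn was at 0 in both. Primitive endoderm markers summed to 16.3 and 8.54 CPM, carried mostly by Gata4. Of the 4 with that mean, 2 were more than 2-fold higher in replicate 1 and 0 in replicate 2, with a median log2 ratio of 1.08. These 2 were Gata6, with 16 and 5 counts, and Dab2, with 52 and 17. Neuroectoderm markers summed to 6.38 and 8.08 CPM, and mesoderm markers to 2.78 and 9.14 CPM, of which Kdr made up 2.16 and 8.49 CPM. Of 6 trophoblast markers, 5 reached the mean of 10 counts and all 5 were more than 2-fold higher in replicate 1, as were 14.2% of the 17788 genes with that mean, with a summed level of 169 CPM against 36.9 CPM. Of this sum, Tfap2c made up 89.7 and 31.5 CPM. The keratin Krt7 had 2674 and 44 counts, Hand1 had 229 and 15, and Cdx2 had 6 and 1. In bulk RNA, fewer cells of a type and less RNA per cell cannot be told apart, and the part of these markers in the differences given below was not tested.

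Levels of different genes were compared per length, as CPM per kilobase of annotated exon. Intervals on counts cover counting error only. On this scale Ei24 was the highest of the 8 genes, with 103 in replicate 1 and 105 in replicate 2, and stood above 97.7% of the genes tested in each library. It held 53.1% and 61.3% of all counts on the 8 genes. Cdkn1a followed with 53.7 and 28.4. Rhoc (19.7 and 9.78), Mbd2 (15.4 and 10.8) and Casp2 (13.4 and 10.6) came next, and Rbl2 (5.84 and 5.12) and Lats2 (2.98 and 7.53) after them. Tgfbr2 was the lowest, with 1.74 and 0.353. The highest gene stood 59.4-fold above the lowest in replicate 1 and 296-fold in replicate 2. With the length of the longest transcript in place of all annotated exon bases these became 124-fold and 618-fold, and Casp2 came before Mbd2 and Rhoc. Of the 7 pairs of neighbours in this order, 4 had ranges over the libraries that did not overlap: Ei24 and Cdkn1a, Cdkn1a and Rhoc, Casp2 and Rbl2, and Lats2 and Tgfbr2. Rhoc and Mbd2, Mbd2 and Casp2, and Rbl2 and Lats2 did not differ beyond their spread.

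**Figure D2:**
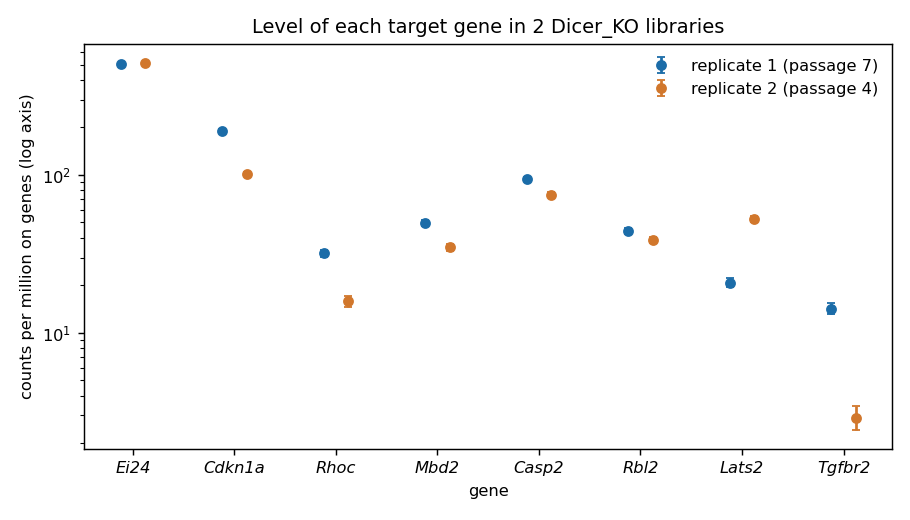
Level of each of the 8 target genes in the 2 Dicer_KO libraries, in CPM on a log axis, with 1 point per library, bars for the 95% Wilson interval, and genes placed in their order per kilobase. The points of Ei24 lie at 504 and 509 CPM and those of Tgfbr2 at 14.3 and 2.89 CPM, and Lats2 and Ei24 are the genes with the higher point in replicate 2.

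Among the genes that act on the cell cycle, Cdkn1a had 7961 counts in replicate 1 and 4198 in replicate 2. These were 191 CPM (187 to 195) and 101 CPM (98.0 to 104), with a mean of 146 ± 63.5 CPM (SD, n = 2). After TMM scaling, which sets the libraries to a common level over most genes, Cdkn1a was 1.74-fold higher in replicate 1, a log2 ratio of 0.80 (95% interval 0.75 to 0.86). Rbl2 had 1840 and 1607 counts, with a mean of 41.4 ± 3.86 CPM, and its log2 ratio of 0.07 (−0.02 to 0.17) was the only one of the 8 whose interval held 0. This depended on the scaling, since with library totals Rbl2 was at 0.19 (0.09 to 0.29) and Ei24 at −0.01 (−0.04 to 0.01) was the one whose interval held 0. Lats2, which restrains YAP by phosphorylation, had 866 counts in replicate 1 and 2181 in replicate 2, or 20.8 CPM (19.4 to 22.2) and 52.5 CPM (50.3 to 54.7). It was 2.74-fold higher in replicate 2, a log2 ratio of −1.45 (−1.57 to −1.34). Cdkn1a and Lats2 thus lay on opposite sides, and Rbl2 between them.

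Tgfbr2 had 595 counts in replicate 1 and 120 in replicate 2, or 14.3 CPM (13.2 to 15.5) and 2.89 CPM (2.41 to 3.45), with a mean of 8.58 ± 8.05 CPM (SD, n = 2). It was 4.53-fold higher in replicate 1, a log2 ratio of 2.18 (1.90 to 2.48). Of the 8 genes it had both the lowest level and the largest ratio. Rhoc had 1328 and 658 counts, or 31.8 and 15.8 CPM, and was 1.85-fold higher in replicate 1, a log2 ratio of 0.89 (0.75 to 1.03). When only the library totals were used for scaling, Rhoc passed 2-fold.

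Casp2 and Ei24 are the targets linked to cell death. Casp2 had 3934 counts in replicate 1 and 3119 in replicate 2, or 94.3 and 75.0 CPM, and a log2 ratio of 0.21 (0.14 to 0.28). Ei24 had 21010 and 21155 counts, or 504 and 509 CPM, with a mean of 506 ± 3.70 CPM (SD, n = 2) and a log2 ratio of −0.13 (−0.16 to −0.10). Casp2 was 1.16-fold higher in replicate 1 and Ei24 1.10-fold higher in replicate 2. Mbd2, which binds methylated CpG and recruits the NuRD complex, had 2069 and 1445 counts, or 49.6 and 34.8 CPM, and a log2 ratio of 0.40 (0.30 to 0.49). It lies at chr18:70568189-70626131, and the letters GCACTT of its 8mer begin after 289 of the 480 bases of its 3′UTR, in exon 7 of 7.

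Of the 8 genes, 2 were past 2-fold between the libraries, Tgfbr2 higher in replicate 1 and Lats2 higher in replicate 2. Of the 17788 genes that averaged 10 counts or more, 21.4% were past 2-fold, 14.2% higher in replicate 1 and 7.14% higher in replicate 2. For averages of 50 counts or more, as all 8 genes had, the share was 16.2%. A share of 2 in 8 is near this background and is no result about the target genes. A log2 ratio at least as far from 0 as that of Tgfbr2 was found in 4.57% of the tested genes, and for Lats2 in 12.1%. The corresponding shares were 24.8% for Rhoc, 28.2% for Cdkn1a, 54.3% for Mbd2, 73.4% for Casp2, 83.0% for Ei24 and 90.8% for Rbl2. The log2 ratio was above 0 for 6 of the 8 genes and for 51.3% of all tested genes, with a median of 0.30 against 0.02. The median size of the ratio was 0.60 over the 8 genes and 0.45 over all tested genes.

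**Figure D3:**
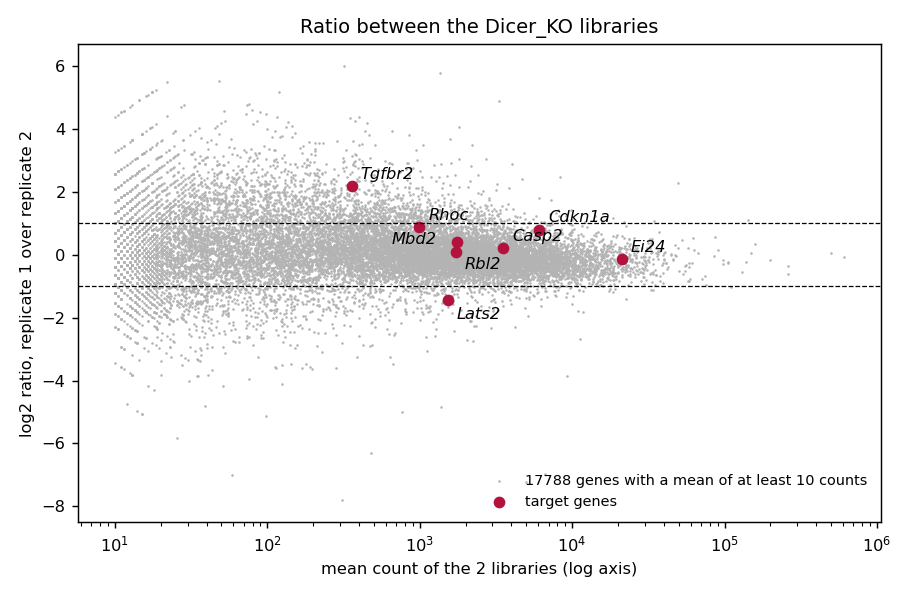
Log2 ratio of replicate 1 over replicate 2 after TMM scaling, plotted against the mean count on a log axis. Grey points are the 17788 tested genes, red points the 8 target genes, and the dashed lines mark 2-fold. Tgfbr2 at 2.18 lies above the upper line, Lats2 at −1.45 below the lower one, and the other 6 lie between the lines.

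Genes with and without a seed match were also compared between the libraries, over the 14396 tested genes that had a 3′UTR to search. Both libraries were Dicer_KO, and the paper reports that mature miR-295 was absent from both of its mutant lines. Action of the miRNAs through these sites was therefore not tested, and the values only describe the libraries. The median log2 ratio was −0.01 for the 445 tested genes with an 8mer, 0.02 for the 2584 with any 7mer or 8mer and 0.07 for the 11812 with none. Past 2-fold were 17.3%, 16.5% and 21.5% of these. Among the 8 genes, Tgfbr2 and Lats2, both past 2-fold, held 3 and 2 sites. Casp2, with 3 sites, had a log2 ratio of 0.21, and Cdkn1a, with 2 sites, one of 0.80. Rbl2, Rhoc, Ei24 and Mbd2 held 1 site each and were within 2-fold.

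The miRNA precursor genes were read from the same polyadenylated RNA. Counts over a hairpin come from the long primary transcript that carries it, and not from the mature miRNA. All 7 genes of the miR-290 cluster that were listed were higher in replicate 1. Mir290a had 167 and 30 counts, a log2 ratio of 2.32, Mir291a had 255 and 76 counts, a ratio of 1.61, and Mir292 had 250 and 48, a ratio of 2.24. Further along the cluster, Mir291b had 543 and 187 counts, Mir293 had 615 and 240, Mir294 had 340 and 109, and Mir295 had 578 and 215, with log2 ratios of 1.41, 1.23, 1.51 and 1.30. The hairpins share 1 transcript, so these are not 7 independent values. The gene Nlrp12 is annotated on the other strand over most of the cluster, and without a stated strand setting any reads of it cannot be told apart from those of the hairpins. Of the miR-302 cluster, Mir302a and Mir367 had 0 counts in both libraries, Mir302b had 1 and 2, Mir302c had 1 and 1, and Mir302d had 0 and 1. All of these lie at or under 3 counts, the limit that a count of 0 allows, which corresponds to 0.0719 CPM in replicate 1 and 0.0722 CPM in replicate 2. Reads over the miR-302 hairpins were thus at or near 0 in both libraries, and the rest of the primary transcript was not read.

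**Figure D4:**
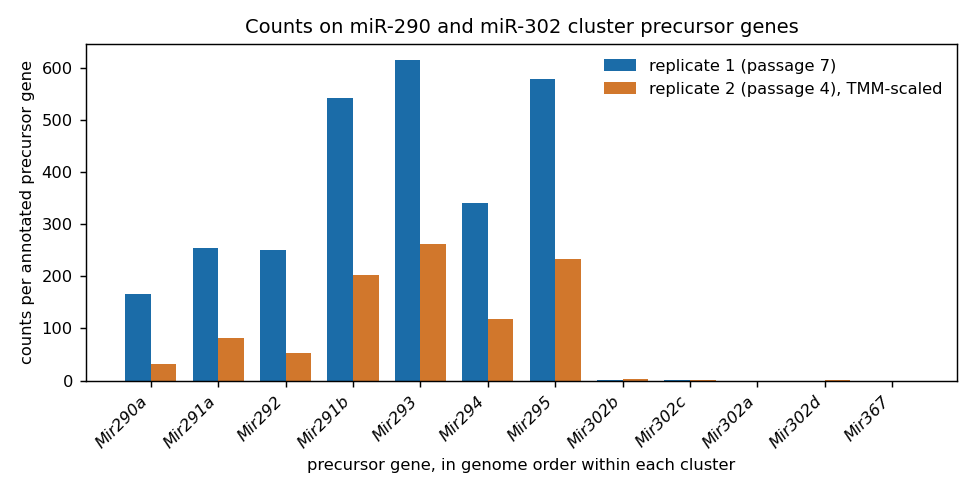
Counts on each annotated precursor gene of the miR-290 and miR-302 clusters, with bars for replicate 1 and for replicate 2 after TMM scaling, in genome order within each cluster. All 7 miR-290 cluster genes are higher in replicate 1, and the miR-302 cluster genes lie at or near 0.

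Partner genes of the 8 targets were examined by pathway, and 63 of the 64 listed had a mean of at least 10 counts. Of these, 6 were past 2-fold higher in replicate 1 and 1 higher in replicate 2, and their median log2 ratio was −0.03. Over all tested genes the shares were 14.2% and 7.14%, against which the counts of each list below are to be read. Among 15 other Hippo pathway genes, Stk3, which encodes a kinase upstream of LATS, was the one past 2-fold, with 3136 and 1121 counts and a log2 ratio of 1.36. Nf2, an upstream activator of the pathway and the highest of the list per kilobase, had 15530 and 15876 counts. The median of the list was 0.00, against −1.45 for Lats2.

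Among 15 other regulators of G1/S, Ccnd2, a D-type cyclin, was the one past 2-fold. It had 448 counts in replicate 1 and 2119 in replicate 2, a log2 ratio of −2.36. Cdk4, the partner kinase of the D-type cyclins, was the highest of the list, with 13359 and 18311 counts and a log2 ratio of −0.58. The median of the list was −0.43, against log2 ratios of 0.80 for Cdkn1a and 0.07 for Rbl2.

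Among 9 other genes of TGF-β signalling, the ligand Tgfb3 was the one past 2-fold, with 50 and 10 counts and a log2 ratio of 2.10. Smad4, the shared signal transducer and the highest of the list per kilobase, had 3292 and 3084 counts, a ratio of −0.03. The median of the list was 0.12, against 2.18 for Tgfbr2.

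Of 5 caspase and caspase adaptor genes, the initiator Casp8 was the one past 2-fold, with 514 and 221 counts and a log2 ratio of 1.09. Pidd1, an activator of the Casp2 protein and the highest of the list per kilobase by the mean of the libraries, had 1018 and 1735 counts and a ratio of −0.89. In replicate 1 Casp9 stood slightly above it, at 5.49 against 5.39 CPM per kilobase. The median of the list was 0.78, against 0.21 for Casp2. None of 6 p53 pathway genes and none of 7 genes of MBD proteins and the NuRD complex was past 2-fold. Their medians were −0.29 and −0.28, and Ccng1 and Chd4 were the highest of these lists. Of 7 other reported targets of the seed, 6 had the mean of 10 counts. Lefty1, an inhibitor of Nodal, had 9661 and 2520 counts (a log2 ratio of 1.82), Irf2, a transcription factor, had 1181 and 491 (1.14), and Akt1, a kinase of growth factor signalling, had 3892 and 1696 (1.08). All 3 were higher in replicate 1, and the median of the list was 0.63. Dkk1, an inhibitor of Wnt, had 4 and 11 counts.

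**Figure D5:**
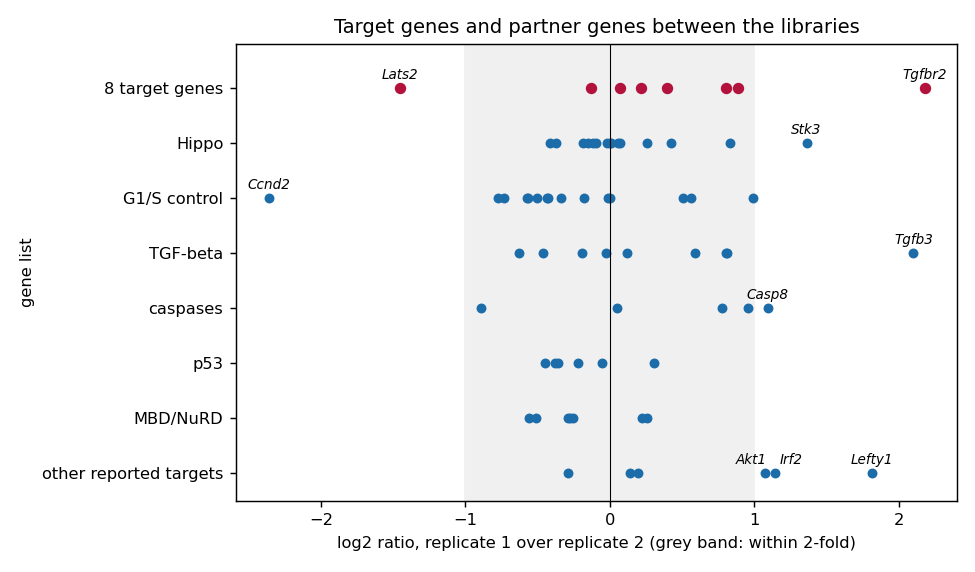
Log2 ratio of replicate 1 over replicate 2 for the 8 target genes (red) and for the genes of each partner list (blue), with 1 point per gene and 2-fold shaded grey. Genes outside the grey band are named. Ccnd2 at −2.36 and Lats2 at −1.45 are the genes past 2-fold on the left, and the remainder outside the band lie on the right.

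The genome around the genes was examined for wider shifts. Tgfbr2 (chr9:116084293-116175360) had 7 tested genes within 1 Mb, with a median log2 ratio of 0.11 and none past 2-fold. Lats2 (chr14:57689662-57758388) had 18, with a median of −0.13 and 2 past 2-fold. Around Cdkn1a (chr17:29090976-29100727) were 45 genes with a median of 0.23, and around Rhoc (chr3:104788375-104794459) were 22 with a median of −0.24. Casp2 (chr6:42264985-42282508) stood among 10 genes with a median of 1.08, of which 7 were past 2-fold, while its own ratio was 0.21. The medians were 0.40 over 6 genes near Rbl2 (chr8:91070057-91123844), −0.27 over 20 near Ei24 (chr9:36779159-36797393) and 0.12 over 6 near Mbd2. Past 2-fold were 7 of the genes near Cdkn1a, 3 near Rhoc, 1 near Rbl2, 3 near Ei24 and 3 near Mbd2. The share over all tested genes was 21.4%.

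Sequence shared with other annotated genes was counted for each of the 8. Of the 50-base stretches of the Lats2 transcript, 56.5% also occur in Gm49361, a gene model on the same strand. Gm49361 overlaps 2955 exon bases of Lats2 and is not among the genes that were counted, so it took no reads from Lats2. Reads in the overlap of counted genes were ignored by the authors, with strand use not stated. Rbl2 overlaps Aktip on the other strand by 693 bases, and 11.3% of its stretches occur in Aktip or Gm45464. Ei24 overlaps Gm26787 on the other strand by 324 bases. For Cdkn1a the share was 10.5%, all with AC167363.2, for Tgfbr2 it was 0.783%, and for Casp2, Mbd2 and Rhoc it was 0.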

How the data were processed

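Polyadenylated RNA of Dicer_KO mESCs was sequenced by the authors with a protocol labelled as reverse-stranded, in 2 libraries of 1 group. The deposited values are raw read counts per Ensembl gene, which the authors made by trimming with Trimmomatic, alignment to mm10 (GRCm38) with STAR 2.4.2a and counting with featureCounts 1.4.5-p1, tool versions being those of the submitters' processing notes. Reads in overlaps between genes were ignored by the authors. The strand setting and the treatment of multi-mapping reads at counting are not given in the sources used here. The files list 1167 gene IDs with no entry in GENCODE M21, from which symbols, exon lengths and 3′UTRs were taken.

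The 8 genes, the partner lists and the markers were chosen with earlier results of these data known. Some partner genes are not reported here and are left out of the lists and their counts. Levels are CPM with Wilson intervals of 95%. Ratios used TMM factors (edgeR 4.0.16, R 4.3.3), a pseudocount of 1, genes averaging 10 counts or more, and exact conditional binomial intervals. All intervals cover counting error only, at 41566184 to 41710122 counts per library. With 1 library per passage, no test was run and "past 2-fold" is a size. The libraries were harvested at different passages, and the paper refers to RNA sequencing data of both mutant lines. The labels do not say whether each library came from a separate line. The genes named are all 8 targets, Dicer1, the miRNA precursor genes and, in each partner list, the highest per kilobase by the mean of the libraries and all past 2-fold. The markers named were chosen after their values were seen. With 2 libraries no genes were ranked by likeness of pattern. Other scalings (library totals, unscaled counts, DESeq2 1.42.0), filters, pseudocounts, folds, lengths and site forms were tried. The ratio steps were tested on simulated data. The study's list of genes called differentially expressed between Dicer_KO and WT mESCs gives WT counts. It was not used, since it holds none of the 8 genes. Absence from that list means that a gene did not pass the study's thresholds, and not that it was unchanged.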

Additional observations from a re-analysis of the deposited data

How the results depend on the processing

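No paired analysis was possible because the labels give 1 group, which holds both libraries. Of 72 alternative values over 24 results, 55 stayed within the spread or within 1.5 times the count given in the report, 17 moved and 0 changed sign. The 2 target genes past 2-fold became 4 at 1.5-fold and 1 at 4-fold, where 39.6% and 5.71% of all tested genes were past the fold. The 7 partner genes became 18 and 2. With an 8mer required, 5 of the 8 genes held a site. Scaling by library totals or leaving counts unscaled put 3 of the 8 past 2-fold, with 22.1% and 22.0% of all genes, and DESeq2 put 2. Scaling by totals moved the median of all genes to 0.14, and the median of the 8 genes stood 0.28 above that of all genes under each scaling. In the order by level per length, between 3 and 8 genes kept their rank when 1 library was left out, the lowest without replicate 1. Leaving out 1 of 2 libraries cannot move a mean by more than their spread, so it says nothing about stability.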
